A study of Mus musculus with 4 samples.

Results

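Germ cells use their own versions of several enzymes of glucose and pyruvate metabolism. The 10 genes described here were taken by name from the 24411 genes in the files. They are 4 testis isozymes (*Pgk2*, *Ldhc*, *Gapdhs* and *Pdha2*) and 6 somatic forms (*Pgk1*, *Ldha*, *Ldhb*, *Gapdh*, *Pdha1* and *Hk1*). The RNA came from GFP-positive male germ cells sorted from testes at postnatal day 18, in 2 control *Zfp541*+/- libraries (controls 1 and 2) and 2 libraries labelled *Zfp541* KO (KO 1 and KO 2). All 4 carried a knock-in allele of *Rec8* (*Rec8*-3xFLAG-HA-p2A-GFP), in which GFP is made with this meiotic cohesin, and the sort was meant to enrich meiotic prophase. One control was heterozygous and the other homozygous for the knock-in, both testes labelled *Zfp541* KO were homozygous, and the labels do not say which control was which. The knockout allele is a CRISPR/Cas9 deletion that begins in the first exon and spans many exons. The study used 1 founder line in most of its experiments, and found no ZFP541 protein in extract of KO testis. The labels give a mixed C57BL/6 and CBA strain, whereas the methods give C57BL/6. Each library was 1 testis, and p-values measure the spread between these testes only.

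Glycolysis turns glucose into pyruvate, which lactate dehydrogenase exchanges with lactate and the pyruvate dehydrogenase complex feeds into the tricarboxylic acid cycle. *Pgk1* and *Pdha1* lie on the X chromosome, which is silenced during pachytene, and *Pgk2* and *Pdha2* are autosomal copies of them without introns. *Ldhc* is switched on in spermatocytes, and *Gapdhs*, whose protein is anchored in the sperm tail, in spermatids after meiosis. Sertoli cells supply spermatocytes with lactate, and sperm rely on glycolysis for movement.

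The values are TPM, a transcript abundance per gene length with a fixed total per library, so levels of different genes can be set side by side, but sequencing depth is unknown. All 10 genes reached the mean of 1 TPM that was required for testing, and all 10 also did so in the controls alone and in the KO libraries alone. *Zfp541*, the deleted gene, had 112 and 72.2 TPM in the controls, against 136 and 151 TPM in KO 1 and KO 2. Its level was not lower in the libraries labelled *Zfp541* KO (log2 difference 0.67, standard error 0.28, adjusted p = 0.371 from limma). With many exons deleted, this level does not bear out the label. A value per gene does not show which exons the reads came from, and the reason was not tested. Directions below follow the labels.

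Cell type marker levels differed widely between the 4 libraries. Leydig cell markers summed to 2910 TPM in control 1, 18.0 in control 2, 331 in KO 1 and 504 in KO 2, and macrophage markers to 2045, 21.6, 1687 and 1251 TPM. The synaptonemal gene *Sycp3* was at 1108, 1263, 2093 and 2196 TPM in the same order of libraries. *Rec8*, which drives the GFP, was at 7.05, 27.9, 27.7 and 19.4 TPM. Markers of leptotene and zygotene summed to 2038 and 2648 TPM in the controls, against 4185 and 4210 TPM in the KO libraries. Of these, 7 of 9 were higher in both KO libraries than in both controls, as were 38.6% of all genes tested. *Sycp3*, whose protein the paper also detects in pachytene, and *Hormad1* (531, 728, 1145 and 1232 TPM) made up most of the sum. *Stra8* and *Spo11* overlapped between the groups. Pachytene markers summed to 1571 TPM in control 1 but 497 in control 2, 459 in KO 1 and 632 in KO 2. Against control 1, 8 of 9 pachytene markers were lower in both KO libraries, and against control 2, 5 of 9, with 5 of 9 lower than both controls (12.1% of all genes tested). The 10 round spermatid markers summed to 235, 107, 121 and 140 TPM, of which 5 were tested, 1 was lower and 1 higher without overlap. *Acr* (118, 36.5, 18.0 and 21.9 TPM) and *Crem* (91.5, 52.7, 70.2 and 85.5 TPM) made up most of the sum, and *Prm1*, *Prm2* and *Tnp1* were at or below 1.48 TPM in every library. The part of these differences in the results below was not tested, and in such bulk samples fewer cells of a type and less RNA per cell cannot be told apart.

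**Figure D1:**
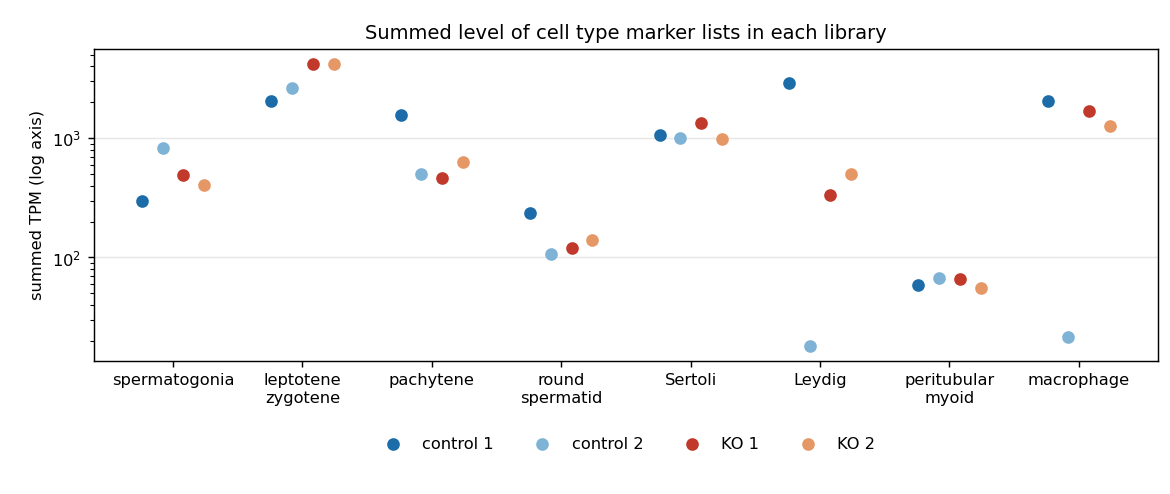
Summed TPM (log axis) of 8 cell type marker lists in each of the 4 libraries, 1 point a library. Control 1 is the highest for pachytene (1571 TPM) and Leydig cell markers (2910 TPM), and control 2 is far below the others for Leydig cell (18.0 TPM) and macrophage markers (21.6 TPM).

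The testis isozymes *Pgk2*, *Ldhc* and *Pdha2* were lower in KO 1 and KO 2 than in either control, and *Gapdhs* was close to 1 TPM everywhere. Among the somatic forms, *Ldha*, *Hk1* and *Pgk1* were lower in both KO libraries, *Pgk1* by very little, and *Ldhb*, *Gapdh* and *Pdha1* overlapped between the groups. In all, 6 of 10 genes were lower without overlap, where 12.1% of the 14512 genes tested were, and 1 of 10 (*Gapdhs*) was higher without overlap, where 38.6% were. None of the 10 passed an FDR of 0.05 in limma, nor did any other gene (0%). At an unadjusted p under 0.05, 3 of 10 were lower, where 3.73% of all genes were, and 0 of 10 were higher, where 10.7% were. Of the 10, 4 were at least 2-fold lower, where 5.22% of all genes were. The median log2 difference of the 10 genes was -0.42, against 0.28 over all genes tested. All 10 lay below that median gene on this scale, but not with quantile normalization, where the median gene was at 0.077 and *Ldhb* (0.27) and *Gapdh* (0.35) lay above it, nor with median-ratio scaling, where it was at -0.015 and *Gapdhs* (-0.0031) lay above it. Without control 1 (median gene 0.45) *Pdha1* lay above it at 0.68, and without control 2 (median gene 0.15) *Ldhb* (0.75) and *Gapdh* (0.71) did. *Gapdh* also lay above the median gene with a pseudocount of 5 (0.25 over 0.19) and, narrowly, without KO 2 (0.321 over 0.310). With no filter (median gene 0.169) *Gapdh* (0.253) and *Gapdhs* (0.179) lay above it.

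**Figure D2:**
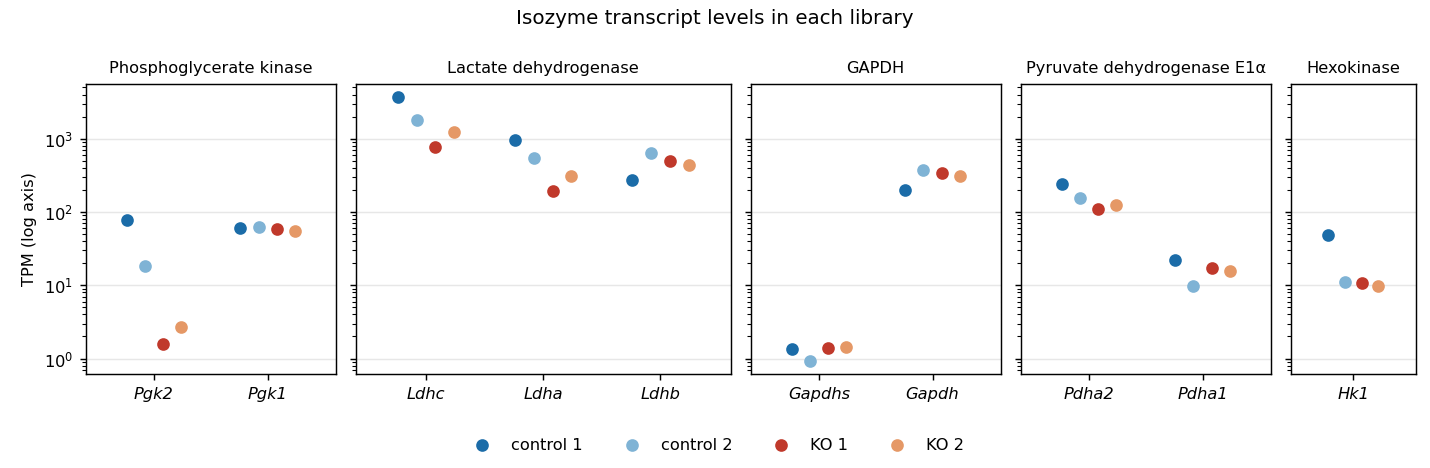
TPM (log axis) of the 10 genes in each library, 1 point a library, grouped by enzyme. *Pgk2* spans 1.59 to 79.0 TPM while *Pgk1* stays between 54.7 and 61.8 TPM, and *Ldhc* and *Ldha* follow the same order of libraries.

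Phosphoglycerate kinase makes the first ATP of glycolysis, and its testis form showed the widest range of the 10 genes. *Pgk2* (ENSMUSG00000031233, chromosome 17, 40207015 to 40208640, minus strand, GRCm38) has 1 exon. Its level was 79.0 TPM in control 1, 18.4 in control 2, 1.59 in KO 1 and 2.71 in KO 2. Both KO libraries lay below both controls, and control 2 was 6.77 times KO 2, the closest pair across the groups. The means were 48.7 ± 42.9 TPM in the controls (SD, n = 2) and 2.15 ± 0.79 TPM (SD, n = 2) in the KO libraries. The log2 difference on the log2(TPM + 1) scale, which understates it at such levels, was -3.67 (standard error 0.79, adjusted p = 0.310 from limma), and 0.179% of all genes tested had a lower one. The controls themselves differed 4.30-fold. Without control 1 the log2 difference was -2.64 and without control 2 it was -4.69. Over the same libraries the pachytene marker sum was 497 TPM in control 2, between the 459 TPM of KO 1 and the 632 TPM of KO 2. *Piwil1* (706, 244, 238 and 364 TPM) was its most abundant gene. Of its 9 genes 5 were lower in both KO libraries than in either control and 1 was higher (*Mybl1*), against 12.1% and 38.6% of all genes tested. *Pou5f2* (70.5, 6.31, 0.33 and 0.14 TPM) was the most extreme of the 5, its lower control 19.1 times its higher KO library. For the others this was 2.20 times (*Ccna1*), 1.67 (*Spag6*), 1.57 (*Adam3*) and 1.09 (*Ovol1*). The part of pachytene cell content in the *Pgk2* difference was not tested.

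*Pgk1* (ENSMUSG00000062070, chromosome X, 106187100 to 106203699, plus strand), the form of other tissues and the X-linked source of *Pgk2*, has 11 exons. Its level was 60.8 and 61.8 TPM in the controls, against 58.2 and 54.7 TPM in the KO libraries. The groups did not overlap, but the highest library was only 1.13 times the lowest. The log2 difference was -0.12 (standard error 0.19, adjusted p = 0.788 from limma), beside a median of 0.28 for the 548 X-linked genes tested. *Pgk2* thus made up 56.5% and 22.9% of phosphoglycerate kinase transcripts in the controls, and 2.66% and 4.72% in the KO libraries. The summed level of both genes was 140 and 80.2 TPM in the controls, against 59.8 and 57.5 TPM in the KO libraries.

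The reference sequences before the start sites of *Pgk2*, *Ldhc* and *Pdha2*, the testis forms that were lower in both KO libraries, and of *Pgk1*, which had the smallest log2 difference of the 10 genes, are shown because they differ in composition. Each run holds the 250 bases upstream of a RefSeq start (GRCm38.p6), 5′ to 3′ on the gene's strand. Capitals mark 4 short motifs on either strand: the TATA box motif TATAAA, the box called CCAAT, the GC box GGGCGG, and TGACG, which is the core of the cyclic AMP response element.
Pgk2 (chr17:40208610-40208859, minus strand): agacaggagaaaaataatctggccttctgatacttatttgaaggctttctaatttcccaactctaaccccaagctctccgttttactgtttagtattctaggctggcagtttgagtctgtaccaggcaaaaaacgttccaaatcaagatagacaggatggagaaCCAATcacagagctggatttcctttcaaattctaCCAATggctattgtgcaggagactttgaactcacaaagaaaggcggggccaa
Pgk1 (chrX:106186850-106187099, plus strand): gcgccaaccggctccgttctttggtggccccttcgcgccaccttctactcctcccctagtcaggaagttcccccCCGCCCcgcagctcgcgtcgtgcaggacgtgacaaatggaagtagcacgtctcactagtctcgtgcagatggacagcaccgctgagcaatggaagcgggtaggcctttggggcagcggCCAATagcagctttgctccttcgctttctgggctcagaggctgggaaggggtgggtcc
Ldhc (chr7:46861013-46861262, plus strand): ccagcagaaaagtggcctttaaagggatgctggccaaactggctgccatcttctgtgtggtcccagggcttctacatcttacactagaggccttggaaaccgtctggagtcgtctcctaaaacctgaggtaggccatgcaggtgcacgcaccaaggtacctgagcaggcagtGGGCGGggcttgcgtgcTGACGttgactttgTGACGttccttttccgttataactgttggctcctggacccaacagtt
Pdha2 (chr3:141212356-141212605, minus strand): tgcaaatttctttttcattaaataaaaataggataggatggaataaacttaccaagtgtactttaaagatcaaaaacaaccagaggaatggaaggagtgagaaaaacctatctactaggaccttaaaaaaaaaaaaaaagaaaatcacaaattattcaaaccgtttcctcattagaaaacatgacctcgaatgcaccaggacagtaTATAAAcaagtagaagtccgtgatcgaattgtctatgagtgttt

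Promoter windows of 300 bases, from 250 before to 50 after a start, were found for all 10 genes (14 windows). Over all 32851 windows in the table, TATAAA was present in 13.6%, the CCAAT box in 37.4%, GGGCGG in 35.7% and TGACG in 20.8%. The *Pgk1* window held 24 CG dinucleotides and 5 GC boxes, of which the bases shown hold 1, and the *Pdha1* window 21 CG dinucleotides, where the median window held 7. The *Pgk2* and *Pdha2* windows each held 4 CG dinucleotides and no exact GGGCGG, and looser forms of the GC box were not searched. *Pgk2* had 2 CCAAT boxes, *Pdha2* had 1 TATAAA, and the first of the 2 *Ldhc* windows had 2 TGACG motifs, 1 GC box and 9 CG dinucleotides. The *Ldha* window with the most CG (30) held a single TGACGTCA stretch, which counts as 2 because it reads TGACG on either strand. A match describes these letters only and is no evidence of binding.

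Lactate dehydrogenase interconverts pyruvate and lactate, and its testis form was the most abundant transcript of the 10. *Ldhc* (ENSMUSG00000030851, chromosome 7, 46861203 to 46878142, plus strand) was at 3659 TPM in control 1, 1819 in control 2, 768 in KO 1 and 1230 in KO 2. Both KO libraries lay below both controls, with control 2 1.48 times KO 2. Its means were 2739 ± 1301 TPM in the controls (SD, n = 2) and 999 ± 327 TPM (SD, n = 2) in the KO libraries (log2 difference -1.41, standard error 0.50, adjusted p = 0.336 from limma). Without control 1 the log2 difference was -0.90, and without control 2 it was -1.91.

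*Ldha* (ENSMUSG00000063229, chromosome 7, 46841475 to 46855627, plus strand), the muscle form that favours lactate production, ends 5575 bases before *Ldhc* begins. *Ldha* had 949 and 540 TPM in the controls, against 191 and 306 TPM in the KO libraries, and control 2 was 1.76 times KO 2. The log2 difference was -1.56 (standard error 0.41, adjusted p = 0.315 from limma). It was -1.15 without control 1 and -1.97 without control 2. The 4 libraries had the same order for *Ldha* as for *Ldhc* and *Pgk2*, highest in control 1 and lowest in KO 1. The pachytene marker sum shared these ends but not the order, with KO 2 (632 TPM) above control 2 (497 TPM).

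*Ldhb* (ENSMUSG00000030246, chromosome 6, 142490249 to 142507957, minus strand), the heart form that favours use of lactate, behaved otherwise. *Ldhb* had 277 and 639 TPM in the controls, against 502 and 433 TPM in the KO libraries, so that both KO values fell between the controls. The log2 difference was 0.15 (standard error 0.46, adjusted p = 0.899 from limma), and it was below 0 after median-ratio scaling (-0.19) and without control 1 (-0.45). Summed spermatogonia markers had the same order of libraries as *Ldhb*, at 295 and 820 TPM in the controls, against 487 and 407 TPM in the KO libraries, and their part in it was not tested. *Uchl1* was the most abundant of these markers (127, 559, 273 and 225 TPM), and others such as *Kit* and *Etv5* were higher in control 1 than in control 2. Of the 10 markers, 0 were lower and 2 higher without overlap, against 12.1% and 38.6% of all genes tested. Shares were taken of the TPM sum of *Ldha*, *Ldhb* and *Ldhc*, which leaves out the related testis gene *Ldhal6b* (775, 381, 78.5 and 103 TPM). *Ldhc* accounted for 74.9% and 60.7% of this sum in the controls, and 52.6% and 62.5% in the KO libraries. *Ldhb* was 5.67% and 21.3%, and 34.3% and 22.0%. The summed level of the 3 genes was 4885 and 2998 TPM in the controls, against 1461 and 1969 TPM in the KO libraries.

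Glyceraldehyde-3-phosphate dehydrogenase precedes phosphoglycerate kinase in the pathway. Its sperm form *Gapdhs* (ENSMUSG00000061099, chromosome 7, 30729775 to 30743681, minus strand) was at 1.37 and 0.92 TPM in the controls, against 1.41 and 1.42 TPM in the KO libraries. All 4 values were low, and both KO values exceeded the higher control by less than the controls differed. The log2 difference was 0.18 (standard error 0.38, adjusted p = 0.844 from limma) and changed sign after median-ratio scaling (-0.0031) and quantile normalization (-0.091). *Gapdh* (ENSMUSG00000057666, chromosome 6, 125161715 to 125166467, minus strand), often used as a reference gene, was at 199 and 374 TPM in the controls, against 341 and 310 TPM in the KO libraries. Both KO values again lay between the controls (log2 difference 0.25, standard error 0.36, adjusted p = 0.761 from limma). It was -0.20 without control 1, 0.71 without control 2 and -0.084 after median-ratio scaling. *Gapdh* made up at least 99.3% of the pair in every library.

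The E1α subunit belongs to the pyruvate dehydrogenase complex, which feeds pyruvate into the tricarboxylic acid cycle. Its testis form *Pdha2* (ENSMUSG00000047674, chromosome 3, 141210004 to 141212355, minus strand), with 1 exon, was at 242 and 155 TPM in the controls, against 111 and 124 TPM in the KO libraries. The groups did not overlap, with control 2 1.25 times KO 2. The means were 199 ± 62.1 TPM (SD, n = 2) and 118 ± 9.23 TPM (SD, n = 2), and the log2 difference was -0.72 (standard error 0.28, adjusted p = 0.361 from limma). Without control 1 it was -0.39, and without control 2 it was -1.04. *Pdha1* (ENSMUSG00000031299, chromosome X, 160122209 to 160138413, minus strand), the X-linked source of *Pdha2*, has 11 exons. *Pdha1* had 21.8 and 9.73 TPM in the controls, against 17.0 and 15.5 TPM in the KO libraries, with both KO values between the controls. Its log2 difference was 0.14 (standard error 0.47, adjusted p = 0.906 from limma), 0.68 without control 1 and -0.40 without control 2, and it was below 0 after median-ratio scaling (-0.17) and quantile normalization (-0.18). Unlike *Pgk2*, *Pdha2* was the main form in every library, at 91.7% and 94.1% of the pair in the controls and 86.7% and 88.9% in the KO libraries.

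Hexokinase 1, encoded by *Hk1* (ENSMUSG00000037012, chromosome 10, 62268855 to 62379908, minus strand), starts glycolysis by phosphorylating glucose. *Hk1* was at 48.8 TPM in control 1, 11.2 in control 2, 10.6 in KO 1 and 9.68 in KO 2. Control 1 stood apart, and control 2 was only 1.05 times KO 1. The log2 difference was -1.15 (standard error 0.75, adjusted p = 0.518 from limma), but -0.13 without control 1 and -2.16 without control 2. Leydig cell and pachytene markers were both highest in control 1, and their part in the *Hk1* value was not tested. Germ cells also make their own *Hk1* transcripts, which a value per gene does not separate.

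**Figure D3:**
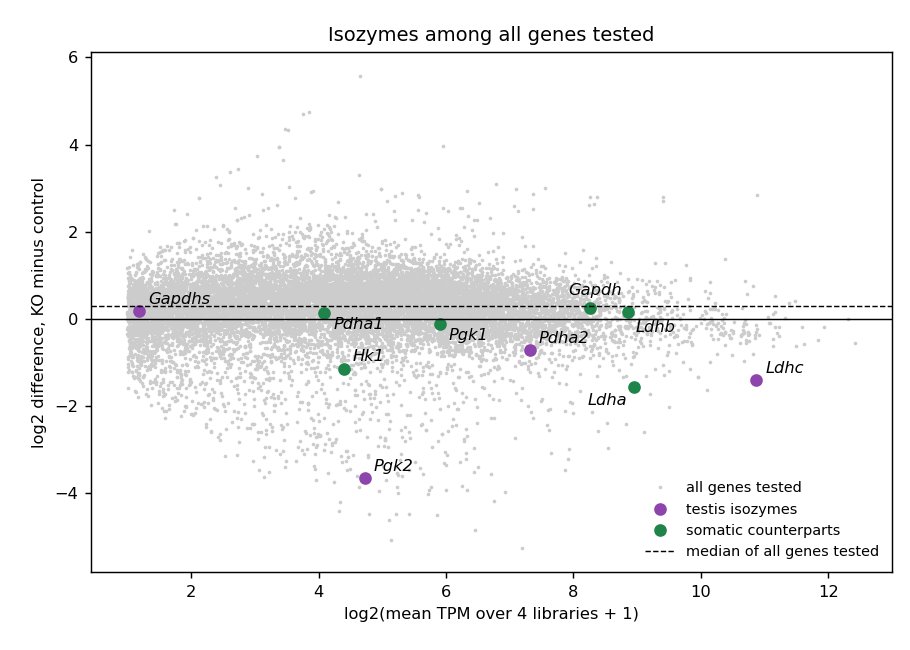
Log2 difference of each of 14512 genes (KO minus control, log2(TPM + 1) scale) against its mean level over the 4 libraries, with the testis isozymes and somatic counterparts marked. *Pgk2* (-3.67) lies near the lower edge at its level, *Ldha* (-1.56) and *Ldhc* (-1.41) lie low among abundant genes, and *Pgk1* (-0.12), *Pdha1* and *Gapdh* lie in the main cloud.

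Reads of near-identical copies can be split between genes. No window of 75 bases, the read length, from the *Pgk2*, *Ldhc*, *Pdha2* or *Hk1* reference transcript occurred in a transcript of another gene, and none was shared among the 10 genes. For *Gapdh* 88.2% of windows occurred in 121 other genes, of which 114 are pseudogenes, and for *Pgk1* 67.5% occurred in 4 pseudogenes. The share was 16.8% for *Ldhb*, 13.9% for *Pdha1*, 5.23% for *Ldha* and 1.01% for *Gapdhs*. The *Gapdh* and *Pgk1* levels are therefore uncertain, to a degree that depends on which of these copies the authors' annotation held. In their aligned coding bases the testis and somatic forms were 79.3% identical for *Pgk2* and *Pgk1*, 75.6% for *Pdha2* and *Pdha1*, 73.2% for *Ldhc* and *Ldha*, 70.3% for *Gapdhs* and *Gapdh*, and 64.8% for *Ldhc* and *Ldhb*.

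Each testis form was then compared with its somatic form inside each library. *Ldhc* exceeded *Ldha* in 4 of 4 libraries, by 3.85 and 3.37 times in the controls and 4.01 and 4.02 times in the KO libraries. Although the level of either gene varied nearly 5-fold (4.76-fold and 4.96-fold from the lowest to the highest library), their ratio stayed within this narrow band (mean log2 ratio 1.93 ± 0.12, SD, n = 4). *Pdha2* exceeded *Pdha1* in 4 of 4 libraries, by 11.1 and 15.9 times in the controls and 6.54 and 8.00 times in the KO libraries. *Ldhc* also exceeded *Ldhb* in 4 of 4 libraries, by 13.2, 2.85, 1.53 and 2.84 times. *Gapdhs* was below *Gapdh* in 4 of 4 libraries, with a mean log2 ratio of (TPM + 1) of -7.04 ± 0.50 (SD, n = 4). For each of these 4 pairs the exact sign-flip permutation test over the 4 libraries, two-sided, gave p = 0.13 (rounded), the smallest it can give. *Pgk2* exceeded *Pgk1* in control 1 alone, by 1.3 times, and was at 0.297 times in control 2, 0.0273 in KO 1 and 0.0495 in KO 2 (exact sign-flip permutation test p = 0.25).

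Of single genes tested, 12.1% were lower and 38.6% higher in the KO libraries without overlap, and no such share was computed for ratios. The ratio of testis to somatic form differed between the groups without overlap in 4 of 5 pairs (3 lower, 1 higher). It was lower in the KO libraries for *Pgk2* to *Pgk1*, with a difference of -3.55 in the mean log2 ratio (-0.66 ± 1.46 against -4.21 ± 0.43, SD, n = 2 each). It was -2.51 without control 1 and -4.58 without control 2. For *Ldhc* to *Ldhb* the difference was -1.55, but -0.45 without control 1 and -2.66 without control 2, and control 2 and KO 2 were nearly equal at 2.85 and 2.84 times. For *Pdha2* to *Pdha1* it was -0.86. It was higher by 0.15 for *Ldhc* to *Ldha*, with 0.25 without control 1 and 0.057 without control 2, and for *Gapdhs* to *Gapdh* the groups overlapped (-0.074, and 0.054 with a pseudocount of 0.1). An exact permutation of 2 against 2 libraries, two-sided, cannot give a p below 0.333, which is the value for each of the 4 pairs without overlap, and it gave 1 for *Gapdhs* to *Gapdh*. With p-values this coarse, adjustment over the 5 pairs was not made.

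**Figure D4:**
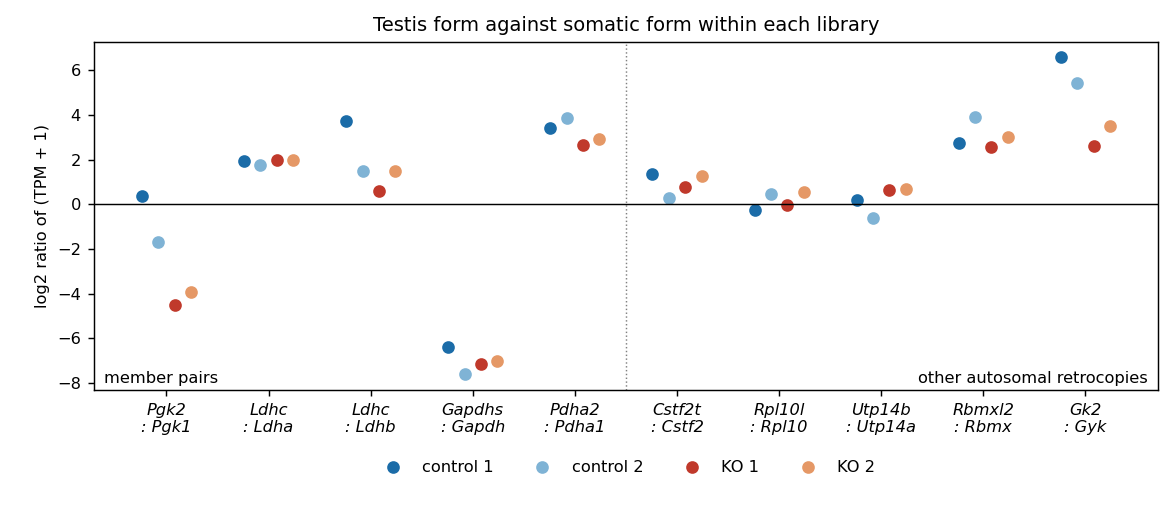
Log2 ratio of testis form to somatic form, from TPM + 1, in each library for the 5 pairs of isozymes (left of the dotted line) and 5 other autosomal retrocopies with their X-linked parents (right). *Ldhc* to *Ldha* stays near 1.93 in all 4 libraries, whereas *Pgk2* to *Pgk1* runs from 0.37 in control 1 to -4.51 in KO 1.

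Other autosomal copies of X-linked genes were listed to set *Pgk2* and *Pdha2* beside them. Of 6 such retrocopies 5 were tested, 0 passed an FDR of 0.05 in limma, 1 was lower and 2 were higher without overlap, against 12.1% and 38.6% of all genes. *Gk2*, the testis glycerol kinase, was at 265 and 95.8 TPM in the controls, against 25.7 and 39.5 TPM in the KO libraries (log2 difference -2.29, standard error 0.57, adjusted p = 0.310 from limma), while its X-linked relative *Gyk* was at 1.24 to 3.31 TPM. *Cstf2t*, which encodes an mRNA cleavage factor, was higher in both KO libraries, at 67.2 and 48.9 against 84.1 and 86.0 TPM. *Utp14b*, needed to make ribosomes in germ cells, was at 15.5 and 8.90 against 24.5 and 23.1 TPM. *Rpl10l*, the germline ribosomal protein that replaces *Rpl10*, was at 466 and 681 against 402 and 474 TPM, and the RNA-binding protein gene *Rbmxl2* at 152 and 219 against 131 and 161 TPM. *G6pd2*, the copy of glucose-6-phosphate dehydrogenase, was at most 0.23 TPM in any library and was not tested. The X-linked parents *Rpl10*, *G6pdx*, *Cstf2*, *Rbmx*, *Utp14a* and *Gyk* had a median log2 difference of 0.16, and 0 of 6 passed an FDR of 0.05. The ratio of retrocopy to parent was lower without overlap for *Gk2* and higher for *Utp14b*. It overlapped between the groups for *Cstf2t*, *Rpl10l*, *Rbmxl2* and *G6pd2*.

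The remaining genes of glycolysis were counted as a list of 24, of which 19 were tested. None of the 19 passed an FDR of 0.05 in limma (smallest adjusted p 0.310). At an unadjusted p under 0.05, 3 were lower and 0 higher, against 3.73% and 10.7% of all genes, and 8 were lower and 3 higher without overlap, against 12.1% and 38.6%. Their median log2 difference was -0.31, beside 0.28 over all genes. *Pgam2*, the phosphoglycerate mutase of muscle and sperm, was at 593 and 279 TPM in the controls, against 40.6 and 61.9 TPM in the KO libraries (log2 difference -2.99, standard error 0.45, adjusted p = 0.310 from limma). The somatic mutase *Pgam1* was at 191 and 245 against 179 and 172 TPM. *Eno4*, the enolase-like protein of sperm, was at 25.0 and 14.5 against 4.75 and 7.67 TPM (log2 difference -1.51, standard error 0.45).

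Further aldolase copies made in the testis were scarce. *Aldoart1* was at 1.10 and 0.58 TPM in the controls, against 0.11 and 0.09 TPM in the KO libraries, under the level for testing, and *Aldoart2* between 1.64 and 2.98 TPM. Among the most abundant genes of the list, *Aldoa*, the main aldolase, was at 401 and 341 against 277 and 266 TPM, and *Eno1b*, a near-identical copy of *Eno1* whose reads may be split with it, at 290 and 328 against 216 and 203 TPM. The pyruvate kinase gene *Pkm* was at 214 and 441 against 375 and 385 TPM, with the KO values between the controls. The largest positive log2 difference was that of *Hk3*, the hexokinase of myeloid cells, at 1.03 (standard error 0.80). *Hk3* was at 4.78 and 0.37 TPM in the controls, against 4.60 and 4.88 TPM in the KO libraries, and macrophage markers were low in control 2 in the same way.

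Of the relatives of lactate dehydrogenase, *Ldhal6b*, a testis gene of the same family, was at 775 and 381 TPM in the controls, against 78.5 and 103 TPM in the KO libraries (log2 difference -2.58, standard error 0.41, adjusted p = 0.310 from limma). Its level was below that of *Ldha* in 4 of 4 libraries. *Ldhd*, the mitochondrial D-lactate dehydrogenase, was at 19.2 and 3.55 against 6.13 and 9.91 TPM.

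The other subunits and regulators of the pyruvate dehydrogenase complex were counted in the same way. Of 11 genes tested 0 passed an FDR of 0.05 in limma, 1 was lower and 4 higher without overlap, shares near the 12.1% and 38.6% of all genes, and the median log2 difference was 0.16. *Pdhb*, the E1β partner of both *Pdha1* and *Pdha2*, was at 453 and 504 TPM in the controls, against 452 and 505 TPM in the KO libraries (log2 difference -0.00097, standard error 0.21). Its level exceeded the summed E1α genes, at 264 and 164 against 128 and 140 TPM, in 4 of 4 libraries. *Dlat* (E2) was at 119 and 70.8 against 92.7 and 114 TPM, and *Dld* (E3) at 183 and 122 against 193 and 205 TPM. The inhibitory kinase *Pdk3*, which is X-linked, was at 37.0 and 95.6 against 75.8 and 56.8 TPM. *Pdk2*, another kinase of the complex, had the most negative log2 difference (-0.98), with 59.7 TPM in control 1 and 19.1, 17.1 and 16.3 TPM in control 2, KO 1 and KO 2. *Pdpr*, a regulator of the activating phosphatase, had the most positive (0.81, standard error 0.25), at 17.8 and 16.9 against 32.4 and 29.6 TPM.

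Transporters bring hexoses, lactate and pyruvate into the cell or the mitochondria. Of 12 genes tested 0 passed an FDR of 0.05 in limma, 3 were lower and 3 higher without overlap, against 12.1% and 38.6% of all genes, and the median log2 difference was 0.0029. *Slc2a3*, the high-affinity glucose transporter GLUT3, was at 1257 and 302 TPM in the controls, against 158 and 261 TPM in the KO libraries (log2 difference -1.60, standard error 0.77, adjusted p = 0.407 from limma). Control 2 was close to KO 2 for this gene. *Emb*, a partner of lactate transporters, was at 5.76 and 4.56 against 12.2 and 11.2 TPM (log2 difference 1.05, standard error 0.35, adjusted p = 0.328 from limma). *Slc16a1*, the lactate transporter MCT1, named here after its values were seen, was at 40.9 and 34.6 against 77.8 and 73.9 TPM (log2 difference 0.99, standard error 0.20, adjusted p = 0.310 from limma). *Bsg*, the other partner of these transporters, was at 859 and 1272 against 1010 and 955 TPM. Of the subunits of the mitochondrial pyruvate carrier, *Mpc2* was at 300 and 393 against 211 and 243 TPM, and *Mpc1* at 80.9 and 150 against 133 and 110 TPM.

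**Figure D5:**
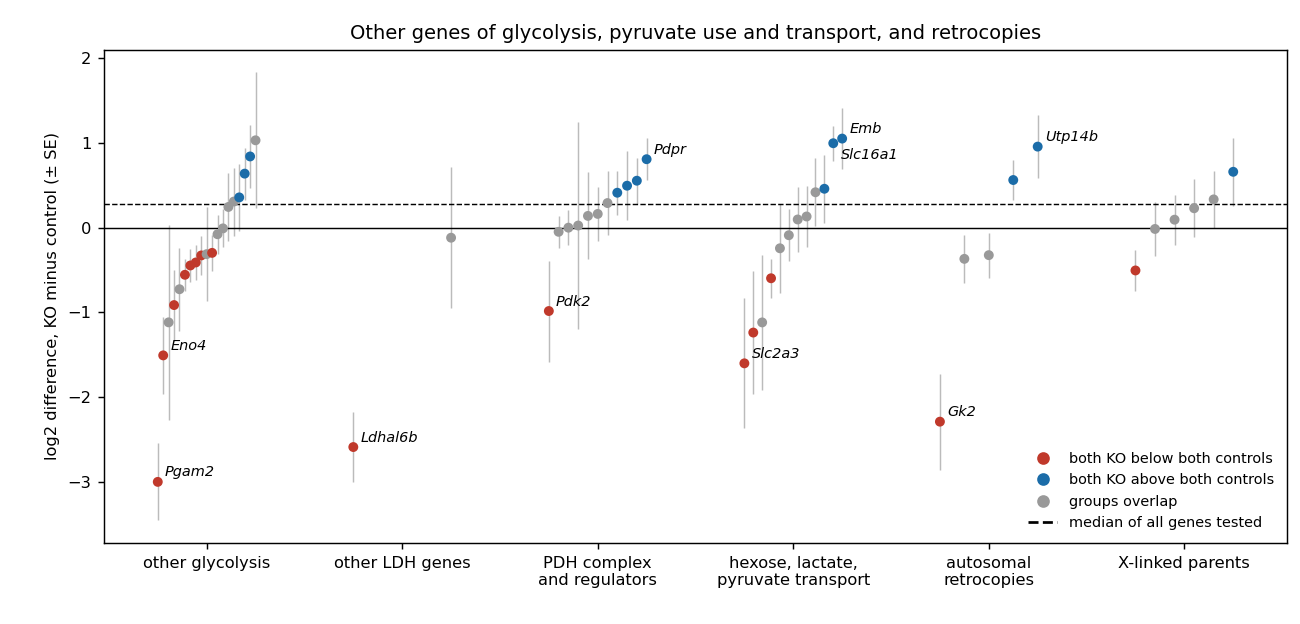
Log2 difference (KO minus control, log2(TPM + 1) scale) with its standard error from limma for each tested gene of 6 lists, coloured by whether both KO libraries lay below or above both controls. *Pgam2* (-2.99), *Ldhal6b* (-2.58), *Gk2* (-2.29) and *Eno4* (-1.51) lie far below the median of all genes (0.28, dashed line), while the pyruvate dehydrogenase genes lie around it.

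The genes most like each testis isozyme were found by the Euclidean distance between their centred log2(TPM + 1) values over the 4 libraries, a likeness that so few libraries define only loosely. For *Pgk2* they were *Speer1* (distance 0.17), *Rasl2-9* (0.29) and *Ppp3r2* (0.31). *Speer1* was at 262 and 60.2 TPM in the controls, against 7.70 and 12.8 TPM in the KO libraries. For *Ldhc* they were *4933404K13Rik* (0.076), *Nsg1* (0.12) and *Moap1* (0.16), and for *Pdha2* they were *Vimp* (0.043), *Glrx2* (0.061) and *Pld6* (0.063). *Pld6*, a mitochondrial protein of the piRNA pathway, was at 209 and 128 TPM in the controls, against 95.3 and 109 TPM in the KO libraries. For *Gapdhs* they were *Scyl3* (0.026), *Ppp1r12c* (0.031) and *Crbn* (0.032), at levels far above that of *Gapdhs*.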

How the data were processed

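RNA of GFP-positive cells was measured in 2 control and 2 KO samples, grouped by their titles. Per the labels and methods, the authors trimmed reads with Trim Galore 0.5.0 (cutadapt 1.16), mapped them onto mm10 with STAR 2.6.0a, and obtained TPM per gene with RSEM 1.3.1 from a UCSC annotation. The deposited TPM keep no depth, so no counting error can be given, and changes in a few abundant genes shift all others. The 14512 of 24411 genes that averaged 1 TPM or more were fitted as log2(TPM + 1) in R 4.3.3 with limma 3.58.1 (mean-variance trend, genotype term, Benjamini-Hochberg FDR of 0.05 over all genes tested). The code was tested on simulated data. Ratios within pairs used exact permutation tests. Members and lists were chosen with earlier results of these data known. Named in the text are the members, both genes of each pair, the 4 most abundant and the most changed genes of each list, the 3 genes nearest in pattern to each testis isozyme, and the testis forms *Aldoart1*, *Aldoart2*, *Eno4* and *Ldhal6b*, with others said to be chosen later or given for comparison (*Pgam1*, *Ldhd*). Loci, exons and shared windows came from GENCODE M21 (GRCm38), promoters from RefSeq (GRCm38.p6). *Meiosin*, *H1f6*, *Gk* and *Mpc1l* matched no symbol in the files.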

Additional observations from a re-analysis of the deposited data

How the results depend on the processing

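The alternatives were other pseudocounts, no filter, other scalings, no variance trend, the replicate block and leaving out each library. The replicate block called 0 genes in either direction and changed no other call. The deviations of same-numbered samples correlated at -0.16. With crossed numbers as the block, added after seeing the data, 7 genes were higher, 80 lower and 0 members called.

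With a control left out, the spread came from the close pair of KO libraries alone and the lone control was assumed to vary like them. Without control 1, 5759 genes were higher and 1463 lower, with 5 members called (*Pgk2*, *Ldha*, *Ldhb*, *Pdha1* and *Pdha2*). Without control 2 there were 2400 and 1981, with 7 members called (*Pgk2*, *Ldha*, *Ldhb*, *Ldhc*, *Gapdh*, *Pdha2* and *Hk1*), whereas without either KO library there were 0. The counts thus ranged from 0 to 5759 higher, 0 to 1981 lower and 0 to 7 members. Overlap was judged on the TPM as given, rescaled only for median-ratio scaling. Pseudocounts, the filter, the variance trend, the blocks and quantile normalization therefore could not change it. Members higher without overlap were 0 with median-ratio scaling, and ranged from 1 to 3 with a library left out. Members lower without overlap were 6 with median-ratio scaling and without either KO library, 8 without control 1 and 7 without control 2. With 1 library left out, *Zfp541* ranged from 0.35 to 0.98, *Ldhb* from -0.45 to 0.75, *Gapdh* from -0.20 to 0.71 and *Pdha1* from -0.40 to 0.68. *Gapdhs* to *Gapdh* ranged from -0.68 to 0.53.

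Median-ratio scaling reversed *Ldhb* (-0.19), *Gapdh* (-0.084), *Gapdhs* (-0.0031) and *Pdha1* (-0.17), quantile normalization *Gapdhs* (-0.091) and *Pdha1* (-0.18), and a pseudocount of 0.1 the *Gapdhs* to *Gapdh* ratio (0.054). Both scalings lowered the median gene, to -0.015 and 0.077. The other glycolysis genes had a median of -0.24 without a filter, -0.63 with median-ratio scaling, -0.37 with quantile normalization, and -0.40 to -0.12 with a library left out. The pyruvate dehydrogenase genes were at -0.10 with median-ratio scaling and 0.12 to 0.53 with a library left out, and the transporters at -0.32 with median-ratio scaling. *Pgk2*, *Ldhc*, *Ldha*, *Pdha2*, *Hk1* and *Pgk1* kept a negative difference under every alternative. The cause of these differences was not tested.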
